A study of Mus musculus with 53 samples.

Results

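The response of vector cells to adipogenic hormones was read from 8 of the 53 arrays of the study, 4 of vector cells on day 2 (d2) and 4 of vector cells on day 0 (d0), chosen by their titles. The cells were NIH-3T3, an immortalised line of mouse embryonic fibroblasts, transduced with an empty vector, so that they carried the vector but neither of the inserts tested in the other cells of the study, PPARg2 and EBF1. The study gave hormones meant to start differentiation into adipocytes, and RNA was extracted at d0, the baseline here, or 2, 4 or 10 days after the stimulation. The labels do not say whether the d0 cells had already met the hormones. The hormones, the vector and whether the transduced cells were a pool or single clones are not given in the sources used here. A d2 group without hormones was not analysed here, so hormone exposure and the days in culture cannot be told apart. The PPARg and EBF1 cells, each with 4 arrays at d2 and 4 at d0, serve below for the question of whether the vector response differed from that with an insert.

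The RNA was read on Affymetrix MG_U74Av2 arrays, where a transcript is measured by a probe set, a group of short probes whose signals are joined into 1 intensity. Mean intensities of the arrays were 314 to 325 at d2 and 313 to 337 at d0, and actin signals from the 3′ end of its transcript over those from the 5′ end, a sign of RNA quality, came to 1.14 to 1.41 at d2 and 1.09 to 1.24 at d0. Replicates 1 and 2 of both groups were processed in 1 session and replicates 3 and 4 in another, and within the second session the d2 arrays were processed on a later day than the d0 arrays. Replicate 4 stood apart in both groups, with a mean absolute log2 difference from the other arrays of its group of 0.241 to 0.379 at d2 and 0.300 to 0.396 at d0. The other pairs differed by 0.166 to 0.226 at d2 and 0.0937 to 0.218 at d0. Leaving out replicate 4 of both groups changed the number of probe sets past the test to 1562, against 1635 with all arrays. The labels speak of 7 independent stimulations without saying which arrays came from separate cultures. The p-values therefore measure only the spread between arrays within a group, pooled over all 53 arrays in 12 groups, which may be technical. With 4 arrays per group, their number limits the precision.

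Fibroblasts that are committed to the fat lineage pass through an early phase when adipogenic hormones reach them. A glucocorticoid acts through its nuclear receptor, agents that raise cAMP act through protein kinase A, and both are known to raise the early regulators Cebpd and Cebpb before Pparg and Cebpa bring on the adipocyte genes. Glucocorticoids also raise acute phase genes together with cytokines that signal through STAT3 and NF-kappa B. Enzymes of sterol synthesis are controlled by the transcription factor SREBP-2, which is held back when the cell has enough sterol. NIH-3T3 cells are known as poor adipocyte formers unless a factor such as PPARg2 is added.

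Of 5766 genes tested, 544 were higher and 736 were lower at d2 than at d0, which is 9.43% and 12.8% of the genes (limma, Benjamini-Hochberg adjusted over all probe sets at 0.05). By probe sets the counts were 679 higher and 956 lower of 7619, or 8.91% and 12.5%. The median log2 fold over all genes was 0.02. Over 2-fold and past the test were 105 genes that were higher and 120 that were lower, 1.82% and 2.08% of the genes. Over 4-fold were 19 that were higher and 20 that were lower (0.33% and 0.347%). The arrays of d2 and d0 did not overlap for 1073 genes, 18.6% of all, with all d2 arrays above all d0 arrays for 486 (8.43%) and below them for 587 (10.2%). Counts of list members below are to be read against the 9.43% higher and 12.8% lower over all genes. Every log2 fold below is d2 minus d0 with its standard error from limma, on intensities floored at 54.5.

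The largest rise was in Saa3, serum amyloid A3, a protein of the acute phase made outside the liver. Its intensity was 9125, 9228, 7929.9 and 8259 at d2, against 71.8, 72.1, 66.7 and 91.2 at d0. All 4 d2 arrays lay far above all d0 arrays, and the log2 fold was 6.85 ± 0.30, a 115-fold rise (limma, adjusted p = 1.2e-23). Lcn2, the iron-carrier binding protein lipocalin 2, had 4379, 4537, 3295 and 2416 at d2, against 163, 117, 135 and 191 at d0, and rose 23.8-fold. Its other tested probe set also rose, with a smaller log2 fold of 1.77. The d2 arrays of session 1 were higher than those of session 2, and none came near the d0 arrays.

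Adarb1, an enzyme that edits adenosine in double-stranded RNA, had intensities of 577, 769, 969.9 and 526 at d2, against 65.3, 75.3, 80.9 and 65.9 at d0. The groups were far apart, and its log2 fold was 3.27 ± 0.17. A second probe set of Adarb1 rose by less, with a log2 fold of 1.48. Gas6, a ligand of the TAM receptor kinases first found in growth-arrested fibroblasts, had 1511, 1787, 1596 and 957 at d2, against 172, 169, 169.8 and 152 at d0, and replicate 4 was lowest in both groups. Wfdc12, a small secreted protein with a whey acidic protein domain, had 1431, 1529, 698 and 532 at d2, against 93.6, 99.2, 116 and 153 at d0. Here the d2 arrays of session 1 were the higher ones, and all 4 exceeded the d0 arrays. Socs2, a feedback inhibitor of cytokine and growth hormone signals, averaged 316 ± 93.7 at d2 and 35.4 ± 2.04 at d0 (SD, n = 4 each). Its 4 d0 values lay below the floor, so it was at least 5.64-fold higher at d2.

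Among the probe sets that stood for a gene, the largest fall was in Crabp1, a cytosolic carrier of retinoic acid. Its intensity was 59.6, 82.1, 66.1 and 57.2 at d2, against 1212, 1260.1, 1245 and 897 at d0. The groups did not overlap, the d2 arrays lay just above the floor, and the log2 fold was -4.12 ± 0.15 (limma, adjusted p = 1.03e-26). A second probe set of Ogn, described with the matrix proteins, fell further, with a log2 fold of -4.54. Gas2, a protein of the actin cytoskeleton of growth-arrested cells, had 44.5, 42.1, 34.3 and 35.2 at d2, against 587, 653, 399.8 and 403 at d0. All d2 values of Gas2 were below the floor, so it was at least 9.15-fold lower. Anxa3, a calcium-dependent membrane-binding annexin, was at least 6.68-fold lower, with means of 43.5 ± 3.18 at d2 and 369.6 ± 72 at d0. Ccn2, a matricellular protein induced by TGF-beta, had 31.5, 20.4, 32.5 and 39.1 at d2, against 406, 484, 278 and 271 at d0, which makes it at least 6.4-fold lower. For Gas2 and Ccn2 the d0 arrays of session 1 were higher than those of session 2, and no d2 array reached them.

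**Figure D1:**
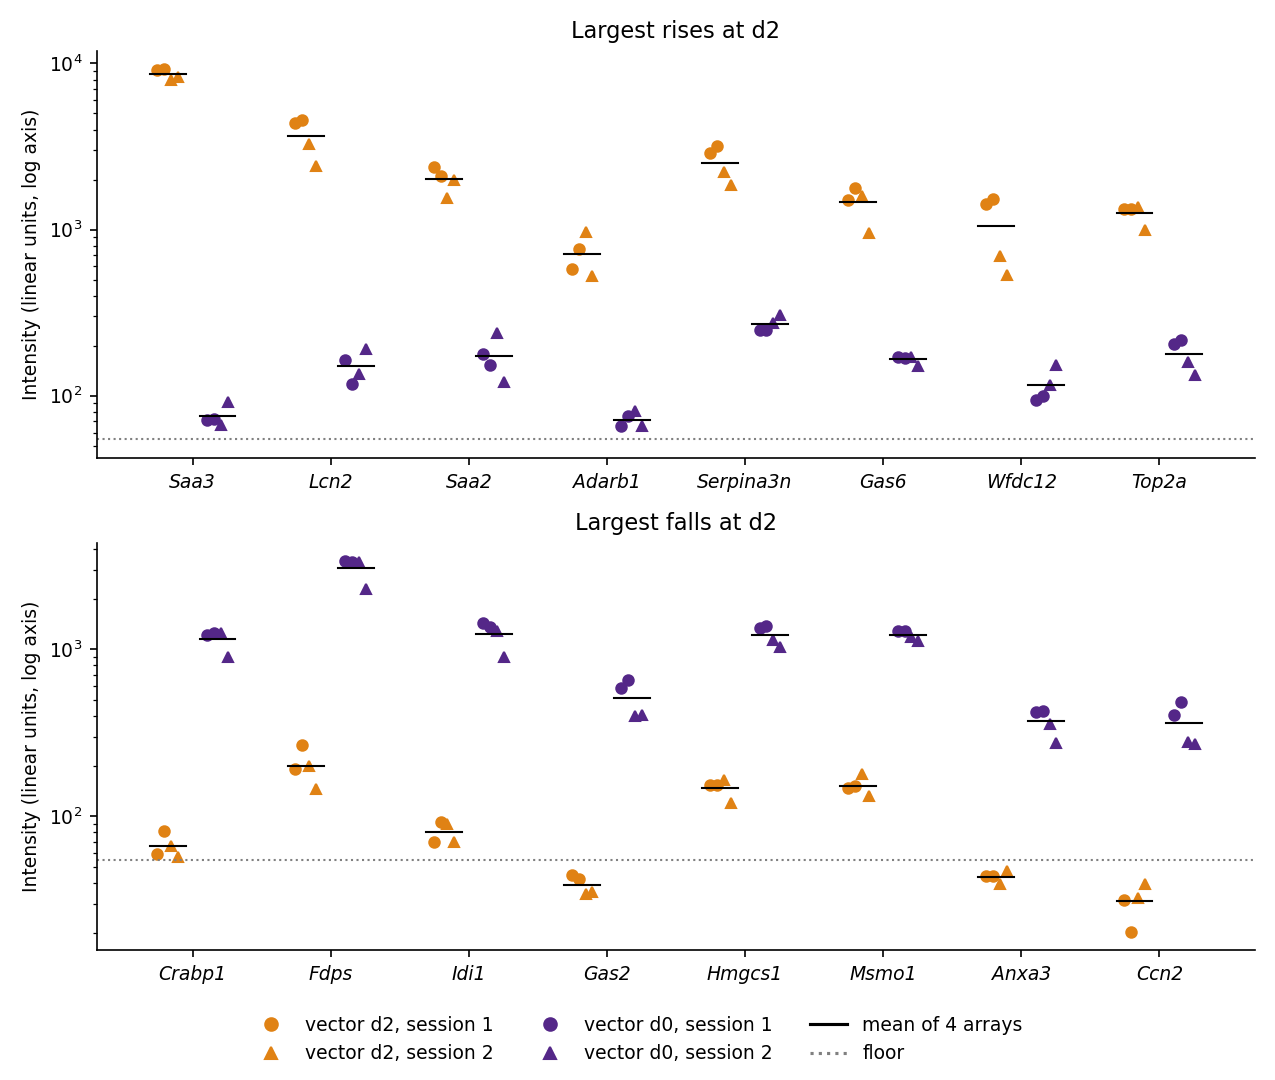
Intensity (linear units on a log axis) of the 8 genes with the largest rise (top) and the 8 with the largest fall (bottom) on each vector array, d2 in orange left of d0 in purple, with circles for session 1, triangles for session 2, black bars for the mean of 4 arrays and a dotted line at the floor. In all 16 genes the d2 and d0 arrays do not overlap, and Gas2, Anxa3 and Ccn2 lie below the floor on every d2 array.

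The response was then read within each processing session, with 2 arrays of d2 against 2 of d0. Of the 225 genes past the test and over 2-fold, all 225 had the same sign in both sessions, and 171 were over 2-fold in both. These 225 were chosen on the fold over the arrays of both sessions, so their agreement in sign is not an independent check. Of all 5766 genes tested, 73.2% had the same sign. Session 1 alone called 1445 genes, of which 96.0% had the same sign in session 2, 504 were called in session 2 in the same direction and 0 in the opposite one. Conversely, session 2 alone called 559 genes, and 99.3% of them had the same sign in session 1. Across the genes tested, the log2 folds of the 2 sessions had a Pearson r of 0.859, a description over genes that are not independent of each other. Folds were smaller in session 2, with a median ratio to session 1 of 0.869 among the 225 genes. In session 2 the day of processing went with the group, so these 2 cannot be told apart there, while in session 1 all arrays shared 1 processing day.

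Hp, haptoglobin, the plasma protein that binds free haemoglobin, showed the size of the session difference. Its intensity was 2867, 3174, 945 and 776 at d2, against 231, 202, 223 and 251 at d0, so that the d2 arrays of session 1 were about 3 times as high as those of session 2. The log2 fold was 3.80 in session 1 and 1.86 in session 2, and 2.83 ± 0.28 over all arrays. Wfdc12 had log2 folds of 3.94 in session 1 and 2.19 in session 2. Other leading genes differed little, such as Saa3, with 7.0 in session 1 and 6.70 in session 2, Crabp1, with -4.14 in session 1 and -4.10 in session 2, and Fdps, with -3.88 in session 1 and -4.02 in session 2.

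**Figure D2:**
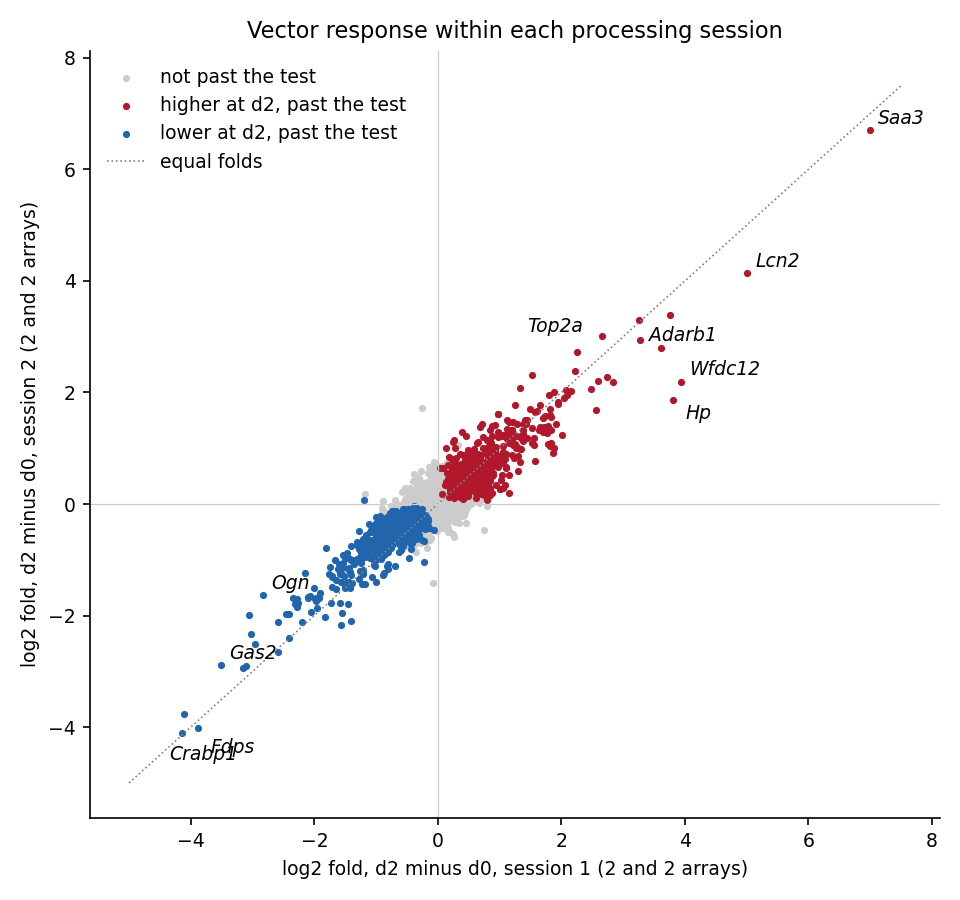
log2 fold of each of the 5766 tested genes, d2 minus d0, in session 1 (horizontal axis, 2 arrays of each group) and session 2 (vertical axis, 2 arrays of each group), with genes past the test over all arrays in red (higher) and blue (lower) and the dotted line marking equal folds. Nearly all coloured points, which were chosen over the arrays of both sessions, have the same sign on both axes, and Hp and Wfdc12 lie well below the line of equal folds.

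Genes known to answer glucocorticoids were mostly higher at d2. Of 24 tested, 15 rose and 4 fell (62.5% and 16.7%, against 9.43% and 12.8% of all genes), with a median log2 fold of 0.94, against 0.02 over all genes. Fkbp5, a co-chaperone of the steroid receptors and a standard marker of glucocorticoid exposure, had 1871, 2018, 1996 and 1590.4 at d2, against 468, 454, 426 and 434 at d0. The d2 values stood about 4 times above the d0 values on every array, and the log2 fold was 2.06 ± 0.10 (limma, adjusted p = 1.56e-21). The metal-binding metallothioneins Mt2 and Mt1 were already bright at d0, with means of 8070.2 ± 1220.0 at d2 and 1885 ± 186 at d0 for Mt2 and 8704 ± 1098 at d2 and 2963 ± 358 at d0 for Mt1. Both rose, by a log2 of 2.09 ± 0.10 and 1.55 ± 0.14, and their near-identical transcripts may share probe signal. Angptl4, an inhibitor of lipoprotein lipase, averaged 1759 ± 391 at d2 and 303 ± 18 at d0 and rose by 2.51 ± 0.15, on another tested probe set by 2.47, while a further one did not pass, with a log2 fold of -0.01. Lcn2, above, is also in this list.

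The 4 that fell were Mgp, Cavin2, Anxa1 and Sgk1. Mgp, the matrix protein that keeps cartilage and vessels from calcifying, had a log2 fold of -1.86 ± 0.24, and Cavin2, a caveola coat protein, of -1.22 ± 0.18. Anxa1, annexin A1, which glucocorticoids raise in other cells, averaged 1748 ± 300.2 at d2 and 3652 ± 102 at d0, a log2 fold of -1.08 ± 0.10. Sgk1, a kinase with the same reputation, had 499.9, 573, 536 and 412 at d2, against 1072, 1038, 935 and 647 at d0, and all d2 arrays were below all d0 arrays. The probe set of the glucocorticoid receptor itself, Nr3c1, was below the floor on all 8 arrays. Of 14 genes of the cAMP response, 2 rose and 4 fell (14.3% and 28.6%, against 9.43% and 12.8% of all genes), with a median of -0.25. Rgs2, a brake on G protein signals, averaged 2283 ± 167 at d2 and 724 ± 36.4 at d0, and Crem, a cAMP-responsive transcription factor, was at or under the floor at d0 and at least 1.62-fold higher at d2. A second, untested probe set of Crem averaged 105 ± 17.1 at d2 and 94.9 ± 25.3 at d0. Akap12, a scaffold that anchors protein kinase A, fell by 2.22 ± 0.17 on the log2 scale.

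Acute phase genes held both of the largest rises. Of 15 tested, 10 rose and 0 fell (66.7% and 0%, against 9.43% and 12.8% of all genes), with a median log2 fold of 0.83. After Saa3 and Lcn2 came Saa2, a serum amyloid of the liver's acute phase, with 2369.7, 2097, 1553 and 1999 at d2, against 179, 153, 237 and 120.3 at d0. The groups were clearly apart, but this probe set is of the kind shared by family members, and a second Saa2 probe set had a log2 fold of -0.11. Serpina3n, a secreted serine protease inhibitor, had 2883, 3196, 2207 and 1843 at d2, against 249.6, 247, 273 and 306 at d0, and its d2 arrays were higher in session 1 than in session 2. Agt, angiotensinogen, the precursor of angiotensin, averaged 1433 ± 169 at d2 and 255 ± 52.6 at d0 with a log2 fold of 2.51 ± 0.16. The 4 other genes that rose, Lbp, Orm1, Cp and Orm2, named after their values were seen, had smaller folds of 1.04, 0.83, 0.78 and 0.60. Orm3, Saa4, Hpx, Fga and Ptx3 did not pass, with log2 folds of 0.36, 0.17, -0.19, -0.52 and -0.75.

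Promoters were read from RefSeq (build GRCm38.p6), 250 bases before to 50 after the gene start, which matched 12 of the 15 acute phase genes. Shown are those of the 3 with the largest rises, 5′ to 3′ along the gene, with capitals for the letters TTGCNNAA on either strand, a core that C/EBP proteins are known to bind.
Saa3: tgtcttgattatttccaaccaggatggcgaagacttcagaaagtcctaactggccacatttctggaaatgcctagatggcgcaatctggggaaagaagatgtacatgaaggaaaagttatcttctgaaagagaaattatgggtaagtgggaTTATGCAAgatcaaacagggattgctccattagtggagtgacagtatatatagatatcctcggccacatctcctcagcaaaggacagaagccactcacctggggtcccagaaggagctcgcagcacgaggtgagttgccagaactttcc
Lcn2: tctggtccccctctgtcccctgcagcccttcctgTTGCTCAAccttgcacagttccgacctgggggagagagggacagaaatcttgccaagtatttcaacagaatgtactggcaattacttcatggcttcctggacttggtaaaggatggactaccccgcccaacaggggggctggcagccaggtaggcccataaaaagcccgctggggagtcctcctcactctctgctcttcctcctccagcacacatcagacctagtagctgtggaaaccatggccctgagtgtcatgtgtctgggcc
Saa2: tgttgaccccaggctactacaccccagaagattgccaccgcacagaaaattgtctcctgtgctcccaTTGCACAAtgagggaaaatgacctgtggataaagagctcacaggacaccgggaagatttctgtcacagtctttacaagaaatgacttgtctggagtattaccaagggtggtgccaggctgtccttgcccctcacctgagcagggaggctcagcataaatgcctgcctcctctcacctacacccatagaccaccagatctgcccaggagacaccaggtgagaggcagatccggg
These regions are chr7:46715627-46715926 on the minus strand, chr2:32387690-32387989 on the minus strand and chr7:46751583-46751882 on the plus strand. The match begins 99 bases before the start in Saa3, 216 in Lcn2 and 183 in Saa2. The letters stood in 10 of the 13 promoters listed for the acute phase genes (76.9%) and in 10.8% of all 32851 promoters, while GGANNTTCC, a kappa B motif, stood in 0 of the 13 and in 4.26% of all. The C/EBP letters also stood in the promoters of Orm3, Saa4, Hpx, Fga and Ptx3, which did not pass the test, and not in those of Serpina3n and Agt, which rose. A match describes the letters in this window and is not evidence of a bound site. The C/EBP genes themselves are described with the adipogenic regulators.

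Many of the secreted signals tested also rose. Of 16 chemokines and cytokines tested, 9 rose and 1 fell (56.25% and 6.25%, against 9.43% and 12.8% of all genes), with a median log2 fold of 0.52. Kitl, the ligand of the receptor KIT, had 1933, 1789.9, 1894 and 1947 at d2, against 568, 581, 648 and 678 at d0, one of the tightest differences, and its log2 fold was 1.61 ± 0.10. Vegfa, the main angiogenic growth factor, averaged 244 ± 28.9 at d2 and 98.4 ± 17.8 at d0. The neutrophil attractant Cxcl5 had 217, 170.1, 132 and 95.7 at d2, against 25.7, 30.1, 55 and 37.4 at d0, with 3 of the 4 d0 values under the floor, and the d2 arrays of session 1 were the highest. Cxcl13 was at or under the floor on all d0 arrays and at least 2.27-fold higher at d2, and Cxcl12, a chemokine of stromal cells, rose by a log2 of 0.83 ± 0.19. Other tested probe sets of Cxcl12 rose by more, with log2 folds of 1.18 and 1.51. Csf1, the macrophage growth factor, was the 1 that fell, by 0.23 ± 0.08, and its call was lost without d2 replicate 2 or 3 or d0 replicate 4 (limma, adjusted p up to 0.121). Il6 had low signals and was not tested, with a mean of 52.1 ± 7.6 at d2 and 48.4 ± 8.46 at d0 (SD, n = 4 each).

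Among 26 cytokine receptors and JAK-STAT components, 9 rose and 1 fell (34.6% and 3.85%, against 9.43% and 12.8% of all genes), with a median of 0.19. After Socs2 the largest was Il13ra1, a subunit of the IL-13 receptor, at 229 ± 53.5 at d2 and 61.4 ± 4.30 at d0. Osmr, the receptor of oncostatin M, had 1129.9, 1059, 874 and 663 at d2, against 289, 333, 276 and 229 at d0, and Il1r1, the signalling receptor of interleukin 1, had a log2 fold of 1.37 ± 0.21. For Osmr no d2 array fell within the d0 range. Jak2, a kinase of these receptors, rose by 0.91 ± 0.15, and Tnfrsf11b, the decoy receptor osteoprotegerin, fell by 0.76 ± 0.20. The shared signal subunit Il6st did not pass, with a log2 fold of -0.27 ± 0.19. Interferon and antigen presentation genes were split, with 6 higher and 6 lower of 28 and a median of 0.03: Ifi204, Ifitm1 and Ifitm3 rose by 1.87, 1.39 and 1.01, and Tapbp, which loads peptides on MHC class I, fell by 0.90. A second probe set of Ifi204 had a log2 fold of 0.15 and did not pass. Of 8 complement genes 0 passed.

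Cholesterol synthesis had the lowest median of the 40 gene lists. Of 14 genes tested, 12 fell and 1 rose, with a median log2 fold of -1.88. Hmgcs1, which makes the precursor of mevalonate, had 153, 153, 166 and 119.6 at d2, against 1344, 1374, 1142 and 1027 at d0, and a log2 fold of -3.05 ± 0.17 (limma, adjusted p = 3.6e-20). Idi1, which isomerises the first isoprene unit, had 70.5, 92.3, 89.6 and 70.5 at d2, against 1431, 1354, 1296 and 894 at d0, a log2 fold of -3.93 ± 0.20. Fdps, farnesyl diphosphate synthase, had 192, 267, 199.6 and 147 at d2, against 3365, 3315, 3357 and 2288 at d0, and its log2 fold was -3.95 ± 0.28. None of these 3 genes came near overlap, although replicate 4 was the lowest d0 array in each. Of the other probe sets of Fdps, 1 fell by 3.22 and a dim one had a log2 fold of 0.24 that did not pass.

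Past squalene, Sqle, the epoxidase that commits squalene to sterols, averaged 264 ± 43.2 at d2 and 1395 ± 193 at d0, a log2 fold of -2.40 ± 0.14. Cyp51, the lanosterol demethylase, averaged 151 ± 38.4 at d2 and 922 ± 213 at d0 with -2.62 ± 0.23, and Msmo1, the C4 methyl oxidase of a later step, 152 ± 19.5 at d2 and 1222 ± 82.5 at d0 with -3.01 ± 0.20 (SD, n = 4 each). To account for the whole pathway, the other genes that fell are named although they stand outside the rule for named genes: Nsdhl with -1.91, Fdft1 with -1.85, Lss with -1.04, Mvd with -0.72, Dhcr7 with -0.57 and Mvk with -0.51. Tm7sf2, a sterol reductase, did not pass, with -0.17 ± 0.14. Ebp, the sterol isomerase, was the 1 that rose, with 475, 589, 328 and 221 at d2, against 288, 300.3, 269 and 180.4 at d0, and its groups overlapped. Its log2 fold was 0.57 ± 0.19, but 0.85 in session 1 and 0.29 in session 2, and the call was lost without d2 replicate 1 or 2 or d0 replicate 4 (limma, adjusted p up to 0.197).

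**Figure D3:**
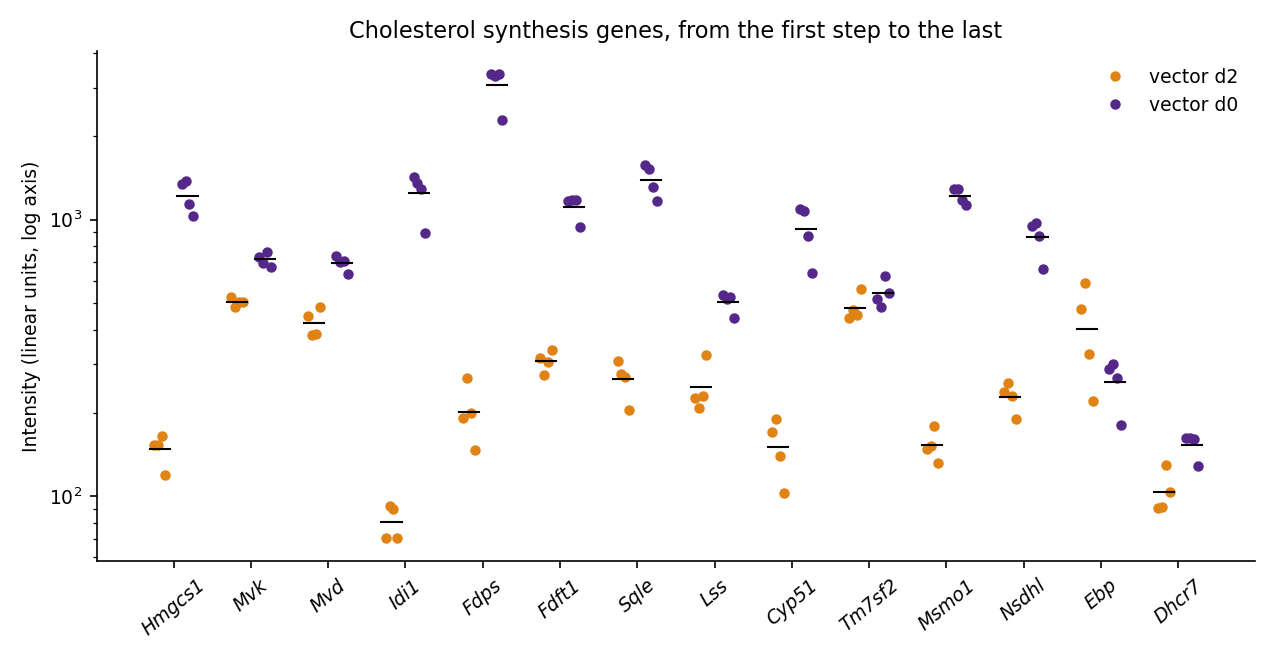
Intensity (linear units on a log axis) of the 14 tested cholesterol synthesis genes on each vector array, in the order of the pathway, with 4 d2 arrays in orange left of 4 d0 arrays in purple and black bars for the means. The gap between the groups is widest at Idi1 and Fdps, small at Mvk, and absent at Tm7sf2, and Ebp alone has the higher mean at d2.

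Promoters matched 11 of the 14 genes. Those of Hmgcs1, which alone held the sterol element letters, and of Idi1, which had the largest fall among the matched genes, are shown with capitals for CCAAT on either strand, the box of the factor NF-Y, and for the sterol element letters TCACNCCAC or TCACCNCAC, which SREBP is known to bind.
Hmgcs1: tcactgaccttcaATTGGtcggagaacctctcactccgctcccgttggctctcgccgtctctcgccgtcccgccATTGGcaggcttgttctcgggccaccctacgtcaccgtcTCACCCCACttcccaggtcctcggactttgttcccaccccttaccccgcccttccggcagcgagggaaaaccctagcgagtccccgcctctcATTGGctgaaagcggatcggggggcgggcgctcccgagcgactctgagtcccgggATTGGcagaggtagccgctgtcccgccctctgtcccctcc
Idi1: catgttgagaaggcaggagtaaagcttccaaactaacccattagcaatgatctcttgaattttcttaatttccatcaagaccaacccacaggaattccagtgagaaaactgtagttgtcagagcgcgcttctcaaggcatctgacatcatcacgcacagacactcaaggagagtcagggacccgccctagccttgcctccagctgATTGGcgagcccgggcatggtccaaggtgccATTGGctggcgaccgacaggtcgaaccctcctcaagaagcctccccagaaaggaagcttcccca
They lie at chr13:119690101-119690400 and chr13:8885356-8885655, both on the plus strand. Hmgcs1 holds CCAAT boxes that begin 237, 176 and 45 bases before the start and 1 after it, and the sterol element 137 bases before. Idi1 holds CCAAT boxes 45 and 14 bases before the start. A CCAAT box stood in at least 1 promoter of all 11 matched genes, in 84.6% of their 13 promoters and in 37.4% of all promoters. The sterol element letters stood in 1 of the 13 (7.69%) and in 2.01% of all. They were not in the window of Msmo1, which fell about as much as Hmgcs1. No match says only that these letters are not in this window.

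Genes of fatty acid and triglyceride synthesis moved both ways, with 5 higher and 7 lower of 22 and a median of 0.07. The enzymes that make and desaturate fatty acids were among those that fell: Elovl6, an elongase, had 148, 150.1, 135 and 134 at d2, against 508, 474, 421 and 339 at d0, a log2 fold of -1.60 ± 0.11. Acly, which makes cytosolic acetyl-CoA, had 621, 672, 740.3 and 369 at d2, against 1685, 1689, 1558 and 1244 at d0. Neither gene had an overlap between the groups, and replicate 4 was lowest in both. The desaturases Scd2 and Scd1 fell by 1.19 ± 0.11 and 0.65 ± 0.18, and Slc25a1, the citrate carrier, by 1.02 ± 0.16. Srebf1, which encodes the SREBP-1 factors, went the other way, with 1079.7, 1119, 1073 and 813 at d2, against 359, 346, 381 and 362 at d0 and a log2 fold of 1.49 ± 0.11. The lipases Pnpla2 and Lipe rose by 0.88 ± 0.10 and 0.84 ± 0.18, as did Lpin1, a phosphatidate phosphatase, by 0.84 ± 0.17. Of 12 genes of sterol uptake and control, 3 rose and 2 fell. Abca1, the sterol exporter, and Lrp1, a lipoprotein receptor, rose by 0.64 ± 0.14 and 0.51 ± 0.14. Fdx1, an electron donor of mitochondrial steroid enzymes, fell by 0.88 ± 0.17, and Scarb1, the HDL receptor, by 0.62 ± 0.18, a call that was lost without d2 replicate 3 or 4 (limma, adjusted p up to 0.0882). Insig1, which retains the SREBP escort in the endoplasmic reticulum, was below the floor on all 8 arrays and was not tested.

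The early adipogenic regulators Cebpd and Cebpb rose, and Pparg and Cebpa did not pass the test. Of 46 adipogenic and C/EBP-related regulators, 14 rose and 6 fell, with a median of 0.13. Cebpd had 2055, 1979, 2210.2 and 1739 at d2, against 558, 574, 1054 and 808 at d0, and Cebpb had 1479, 1582, 1974 and 1203 at d2, against 735, 748, 847 and 518 at d0. In both the d2 arrays were all above the d0 arrays, with log2 folds of 1.46 ± 0.19 and 1.13 ± 0.19. Klf5, a Kruppel-like factor that acts after Cebpb and Cebpd in adipogenesis, had 230.2, 276, 405 and 312 at d2, against 96.3, 105, 80.8 and 86.9 at d0, a log2 fold of 1.71 ± 0.19. Id1, an inhibitor of basic helix-loop-helix factors, rose by 1.31 ± 0.23.

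Pparg read 74.8, 66.6, 77.6 and 58.7 at d2, against 16.5, 19.3, 20.8 and 21.8 at d0. All d0 values were under the floor and the d2 values lay just above it, so the floored log2 fold of 0.34 ± 0.17 did not pass (adjusted p = 0.168), and these signals are too dim to measure a fold. Cebpa had 154, 111, 126 and 162 at d2, against 115, 105, 90 and 167 at d0, with overlapping groups and a log2 fold of 0.24 ± 0.20. Among the genes that fell were Nr2f1, the orphan receptor COUP-TFI, by 1.30 ± 0.22, and Hmga2, a chromatin protein of undifferentiated mesenchyme, by 1.23 ± 0.31. Ebf1 itself averaged 159 ± 19.6 at d2 and 221 ± 44.7 at d0, a log2 fold of -0.47 ± 0.17, past the test at an adjusted p of 0.0452, a call that was lost without d2 replicate 1, 3 or 4 or d0 replicate 1 or 3 (limma, adjusted p up to 0.242). Dlk1, the preadipocyte factor, had 3343, 3689, 4701 and 4423 at d2, against 5806, 6012, 7059.7 and 6795 at d0, lower on every d2 array, with a log2 fold of -0.68 ± 0.15.

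Of 35 adipocyte genes, 12 rose and 2 fell, with a median of 0.24. Those that rose included Lpl, lipoprotein lipase, with 781, 824, 838 and 809 at d2, against 325, 273, 273 and 339 at d0 and no overlap. Ephx2, soluble epoxide hydrolase, was at or under the floor at d0 and at least 4.07-fold higher at d2, and Pcx, pyruvate carboxylase, rose by 1.35 ± 0.15, though its other probe set did not, with 0.11. A second, dim Lpl probe set did not pass either, with 0.27. Fabp4, the fatty acid binding protein of adipocytes, read 56.6, 66, 27.6 and 20.2 at d2, against 6.12, 2.78, 8.57 and 4.52 at d0, all near or under the floor, and Adipoq, adiponectin, read 54.4, 42.5, 54.7 and 81.8 at d2, against 26.7, 31.4, 37.6 and 55.8 at d0, with overlap. Neither passed the test. Cd36, a fatty acid receptor, and Lep, leptin, did not pass, with log2 folds of 0.40 ± 0.20 and 0.06 ± 0.17. The summed intensity of 9 adipocyte markers was 2495 to 2965 at d2 and 1508 to 2240 at d0, and 2 of the 9 passed, Lpl and Retn, both higher.

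The list of defining markers of fibroblasts gave the reverse, with 0 higher and 6 lower of 11 and sums of 23766 to 26380 at d2 and 33424 to 38265 at d0. All 11 had mean intensities well above the floor in both groups, such as Vim, vimentin, at 308 ± 30.3 at d2 and 284 ± 38.2 at d0, and Pdgfra, a growth factor receptor of mesenchyme, at 3554 ± 349 at d2 and 3462 ± 256 at d0. In bulk RNA, fewer cells of a type and less RNA per cell cannot be told apart. Among markers of other cell types, of 5 macrophage, 5 endothelial, 5 B lymphocyte and 4 bone and cartilage markers tested 0 passed. Epcam, Krt18, Lyz2, Ptprc and Tnnt3 were at the floor on all 8 arrays. Others read well above it, such as Myog, at 485 ± 74 at d2 and 482 ± 63.7 at d0. Cd14 averaged 336 ± 52.5 at d2 and 379 ± 82.1 at d0. These means lie above those of Vim, so intensity alone does not show which cell types were present. Of the 2 epithelial and 4 skeletal muscle markers tested, Cdh1 rose by 0.42 ± 0.15 and Myod1 fell by 0.34 ± 0.13. The call for Cdh1 was lost without d2 replicate 1 or 4 or d0 replicate 1, 2 or 3 (limma, adjusted p up to 0.133), and that for Myod1 without d2 replicate 1, 2 or 3 or d0 replicate 3 or 4 (limma, adjusted p up to 0.166). The part of these marker levels in the results was not tested.

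Actin and smooth muscle genes fell together. Of 47 tested, 26 fell and 3 rose, with a median log2 fold of -0.47. Acta2, the smooth muscle actin of contractile fibroblasts, had 50.7, 35.3, 45.8 and 48.3 at d2, against 447, 455, 241 and 197 at d0. Every d2 value was under the floor, so it was at least 5.75-fold lower, and the d0 arrays of session 1 were higher than those of session 2. Cnn2, the actin-binding calponin 2, had 128, 140.2, 163 and 137 at d2, against 776, 839, 731 and 572 at d0, a log2 fold of -2.35 ± 0.19. Tpm1, a tropomyosin, averaged 504 ± 88.8 at d2 and 2084 ± 330.5 at d0 with -2.05 ± 0.17, and Csrp2, a LIM protein of smooth muscle, fell by 1.70 ± 0.20.

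The 3 that rose were Rhob, a small GTPase of endosomes and stress fibres, by 1.25 ± 0.18, Gsn, the actin-severing gelsolin, by 0.64 ± 0.14, and Actb. The Actb probe set tested was dim, at 294 at d2 against 116 at d0, whereas the 3 control probe sets for the same gene had means of 4466 to 6812 at d2 and 6571 to 9315 at d0, with log2 folds of -0.45 to -0.63. The rise of the dim one was lost without d2 replicate 1, 2 or 4 or d0 replicate 1, 2 or 3 (limma, adjusted p up to 0.140). Caveolae, annexins and S100 proteins went with the actin genes, with 12 lower and 1 higher of 17 and a median of -0.56. S100a6, calcyclin, averaged 2136 ± 462 at d2 and 5629 ± 203 at d0, and Anxa2, annexin A2, fell by 1.04 ± 0.12, while Anxa8 rose by 0.71 ± 0.14. Letters of the CArG box, bound by serum response factor, stood in 17.3% of the 52 promoters matched to the actin list and in 1.63% of all promoters.

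Collagen genes moved both ways. Of 26 collagens and processing genes, 6 rose and 8 fell (23.1% and 30.8%, against 9.43% and 12.8% of all genes), with a median of -0.13. The fibrillar Col1a1 had 1903, 2019.8, 2811 and 2479.9 at d2, against 4961, 5577, 7818 and 6969 at d0, lower on all d2 arrays, and a log2 fold of -1.45 ± 0.22. Col1a2 fell by 1.05 ± 0.11, and Lox, which cross-links collagen and elastin, averaged 1063 ± 272 at d2 and 3493 ± 214 at d0. A dimmer probe set of each did not fall in the same way, with log2 folds of -0.22 for Col1a1 and 0.41 for Col1a2. Col8a1, a short-chain collagen, fell by 2.19 ± 0.15. The basement membrane chain Col4a1 had 3026, 3237, 4184 and 4079.6 at d2, against 822, 871, 1114 and 957 at d0, higher on all d2 arrays, with 1.94 ± 0.27. Col4a2 rose by 0.65 ± 0.12, and the chains of collagen VI rose together, Col6a2 by 0.82 ± 0.15, Col6a1 by 0.61 ± 0.10 and Col6a3 by 0.54 ± 0.11.

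Of 32 other matrix proteins, 6 rose and 8 fell (18.75% and 25%, against 9.43% and 12.8% of all genes). Sparcl1, a relative of SPARC, had 582, 729.5, 764 and 686 at d2, against 154, 127, 154 and 124 at d0, and the large proteoglycan Vcan averaged 3297 ± 341 at d2 and 1167 ± 193 at d0. Both rose, by 2.30 ± 0.20 and 1.51 ± 0.12. Ogn, osteoglycin, fell by 2.23 ± 0.25, and its second probe set had a log2 fold of -4.54. Tnc, tenascin C, averaged 72.2 ± 5.55 at d2 and 298 ± 67.3 at d0, and Thbs2, thrombospondin 2, fell by 1.75 ± 0.15. Integrins, laminins and other adhesion genes were mostly down among those that changed, with 1 higher and 10 lower of 31. Vcam1, the endothelial and stromal adhesion receptor, fell by 2.02 ± 0.13, and its other probe sets had log2 folds of -3.08 and -1.85. The tetraspanin Cd9 fell by 2.16 ± 0.13. Among 21 proteases and inhibitors, 5 rose and 6 fell (23.8% and 28.6%). The 2 largest changes were in Timp3, an inhibitor of metalloproteinases, which fell by 1.89 ± 0.28, and Serpinf1, the factor PEDF, which fell by 1.58 ± 0.20 but not on a second, dim probe set, with 0.18.

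Genes of mitosis fell, and the gene of DNA topoisomerase II alpha rose. Of 43 genes of G2 and mitosis, 21 fell and 2 rose, with a median of -0.36. Stmn1, which destabilises microtubules, had 220.4, 202, 209 and 199 at d2, against 729, 683, 485 and 411 at d0, and Mki67, the standard proliferation marker, had 109.7, 98.3, 91.8 and 71.6 at d2, against 305, 295, 193 and 163 at d0. The d0 arrays of session 1 were higher than those of session 2 in both, and no d2 array overlapped them. The log2 folds were -1.44 ± 0.13 and -1.33 ± 0.20. Cks2, a partner of the mitotic kinase, fell by 1.0 ± 0.16, and Anln, a protein of the cleavage furrow, by 0.94 ± 0.10.

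Top2a, DNA topoisomerase II alpha, which untangles chromosomes and usually marks the same cells as Mki67, had 1329, 1333, 1371 and 993 at d2, against 205, 217, 159.7 and 132 at d0. The lowest d2 array was over 4 times the highest d0 array, and the log2 fold was 2.83 ± 0.19 (limma, adjusted p = 7.86e-17).  Of 40 genes of S phase, 2 rose and 5 fell, which is 5% and 12.5%, against 9.43% and 12.8% of all genes. Rrm2, a subunit of ribonucleotide reductase, rose by 0.56 ± 0.16, and Rrm1, its other subunit, fell by 0.46 ± 0.12. Among 31 G1 cyclins, inhibitors and growth arrest genes, 6 rose and 5 fell (19.4% and 16.1%), with Myc at 351 ± 55.2 at d2 and 122 ± 17.6 at d0 and Btg1, an antiproliferative gene, up by 1.23 ± 0.11. The kinase Cdk4 fell by 0.57 ± 0.10. The letters TTTGAA on either strand, the core of the cell cycle homology region of mitotic promoters, stood in 70.3% of 37 promoters of the G2 and mitosis list, in 17.9% of all promoters, and in 11.4% of 44 promoters of the S phase list.

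Of 26 immediate early genes, 7 rose and 0 fell (26.9% and 0%, against 9.43% and 12.8% of all genes). The largest folds were those of Errfi1, an inhibitor of the EGF receptor, with 1.52 ± 0.17, Myc, a growth-promoting transcription factor, with 1.52 ± 0.12, and Dusp1, a MAP kinase phosphatase, with 1.47 ± 0.22. Phlda1, a pleckstrin-domain protein, averaged 193 ± 38.5 at d2 and 79.9 ± 11.7 at d0. Of 29 growth factors and receptors, 8 rose and 7 fell (27.6% and 24.1%). Agtr2, the angiotensin type 2 receptor, averaged 642 ± 90.1 at d2 and 188 ± 19.9 at d0, while Fgf7, keratinocyte growth factor, fell by 1.93 ± 0.18, the secreted Ptn, pleiotrophin, by 1.88 ± 0.29, and Ptgis, prostacyclin synthase, by 1.86 ± 0.22. Igf2 averaged 2401 ± 270.4 at d2 and 1076 ± 75.1 at d0, and 3 of 18 insulin and IGF genes rose and 1, Igfbp6, fell (16.7% and 5.56%).

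Of 31 genes of TGF-beta and BMP signalling, 5 rose and 6 fell, among them Nbl1, a BMP antagonist, up by 1.58 ± 0.12, and Tgfbi, a matrix protein induced by TGF-beta, down by 1.33 ± 0.15. These shares, 16.1% and 19.4%, compare with 9.43% and 12.8% of all genes. Wnt genes had 1 higher and 4 lower of 20 (5% and 20%), with Fzd2, a Wnt receptor, down by 0.95 ± 0.09 and Ctnnb1, beta-catenin, by 0.61 ± 0.18. In the Notch and preadipocyte list 2 rose and 3 fell of 16, with Adam10, the sheddase of Notch, up by 0.87 ± 0.14 and Thy1 down by 1.31 ± 0.21. Of 13 retinoid genes 2 rose and 3 fell (15.4% and 23.1%). Apart from Crabp1 these were small changes, such as Rara, up by 0.53 ± 0.18, a call that was lost without d2 replicate 3 or 4 or d0 replicate 1 or 2 (limma, adjusted p up to 0.134).

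Of 31 genes of the unfolded protein and amino acid response, 13 fell and 2 rose (41.9% and 6.45%, where 12.8% of all genes fell and 9.43% rose), with a median of -0.25. Psat1, an enzyme of serine synthesis, had 506, 569, 488 and 308 at d2, against 2317, 2143, 1634 and 1355 at d0, lower on all d2 arrays, with a log2 fold of -2.0 ± 0.19. The tRNA synthetases Aars and Sars fell by 1.34 ± 0.13 and 0.88 ± 0.12, and Ddit3, the factor CHOP, which restrains C/EBP proteins, averaged 324 ± 35.4 at d2 and 659.6 ± 143 at d0. Xbp1, a factor of the secretory pathway, rose by 0.66 ± 0.14. Of 21 heat shock genes, 1 rose and 4 fell (4.76% and 19%).

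Among antioxidant and detoxifying genes, 9 rose and 8 fell of 43 (20.9% and 18.6%, against 9.43% and 12.8% of all genes). Sod2, the mitochondrial superoxide dismutase, had 880.5, 886, 619 and 456 at d2, against 163, 154, 154 and 106 at d0, a log2 fold of 2.27 ± 0.20. The groups were apart, with session 1 higher at d2. Cyp1b1 averaged 603 ± 135 at d2 and 157 ± 23 at d0, while the glutathione transferases Gsta4 and Gstm1 fell by 1.42 ± 0.12 and 1.24 ± 0.12. A second probe set of Gstm1 did not pass, with 0.10.

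In the lists of energy and housekeeping genes most members did not pass, and over all genes 9.43% rose and 12.8% fell. In glycolysis and the hypoxia response 9 rose and 2 fell of 29, led by Vegfa and Bnip3, a mitochondrial protein of hypoxia, up by 1.17 ± 0.18. Fatty acid oxidation and peroxisome genes had 6 higher and 1 lower of 35, with Scp2, a sterol and lipid carrier of peroxisomes, at 1474 ± 238 at d2 and 638 ± 156 at d0. The citrate cycle list had 6 higher and 1 lower of 33 (18.2% and 3.03%). Of 47 respiratory chain genes, 2 rose, Cycs by 0.89 ± 0.19 and Cox6c by 0.27 ± 0.08, and 0 fell. Another tested probe set of Cox6c did not pass, with a log2 fold of -0.23. Of 23 ribosomal protein genes 2 rose and 0 fell, of 32 proteasome genes 1 rose and 2 fell, of 38 lysosomal genes 5 rose and 6 fell (13.2% and 15.8%), and of 22 genes of polyamine and nucleotide synthesis 6 rose and 0 fell. Srm, spermidine synthase, had a log2 fold of 0.57 ± 0.14. Of the brown fat list 2 genes could be tested and 0 passed.

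**Figure D4:**
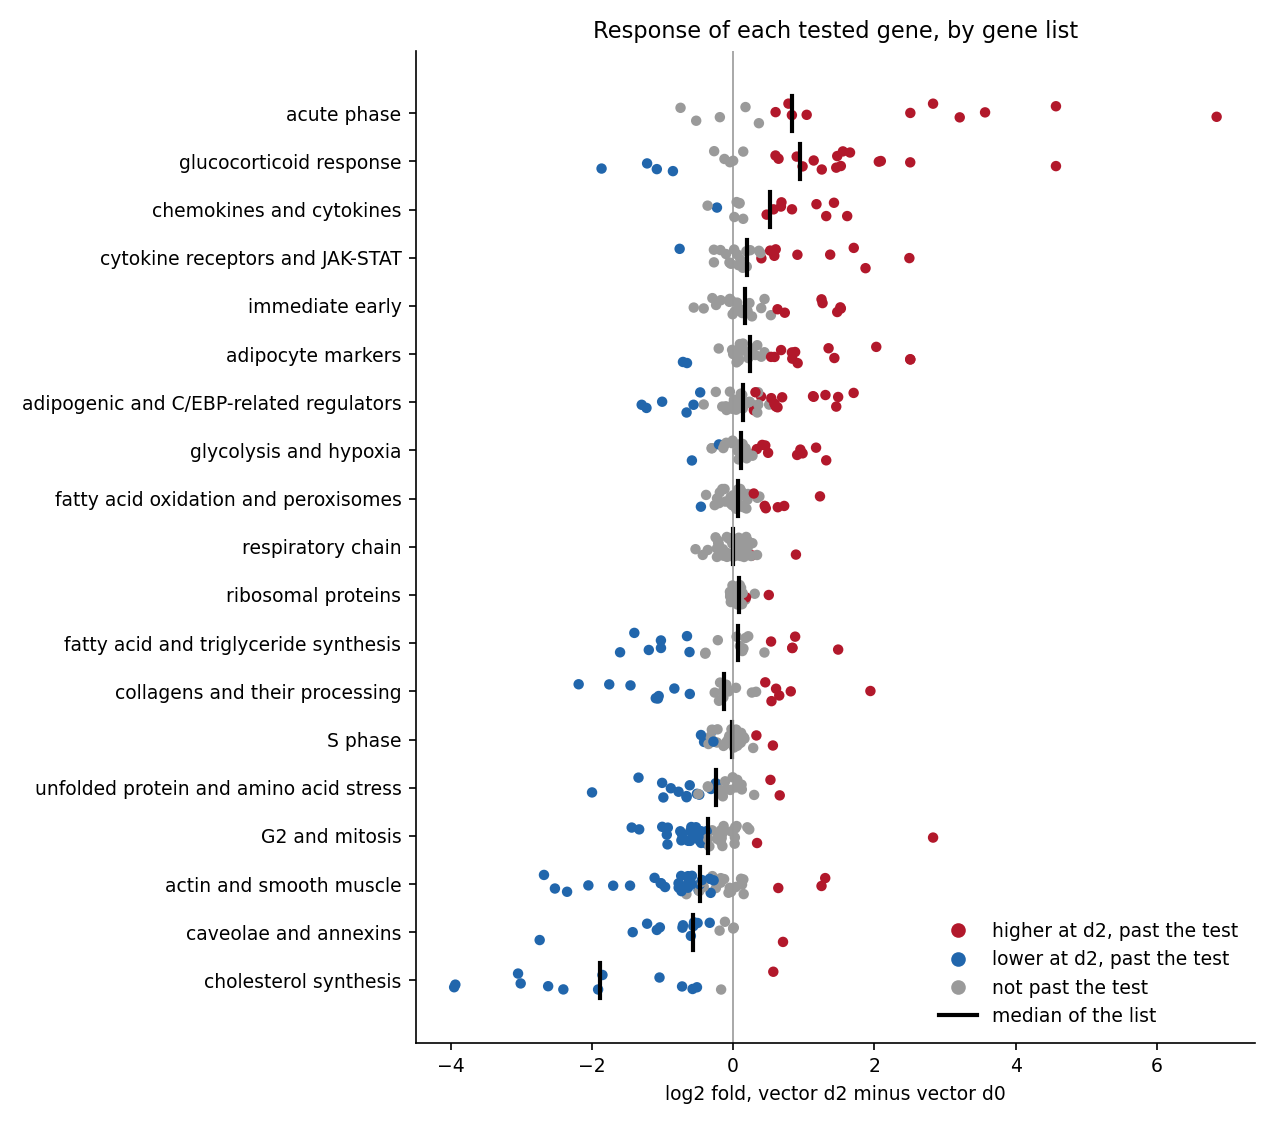
log2 fold of each tested gene, vector d2 minus vector d0, in 19 gene lists, with genes past the test in red (higher) and blue (lower), others in grey, and a black bar at the median of each list. Acute phase and glucocorticoid genes reach furthest to the right, cholesterol synthesis, actin and caveola genes lie to the left, and respiratory chain and ribosomal protein genes stay close to 0.

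Without replicate 4 of both groups, the lists kept similar counts: 11 higher and 0 lower for the acute phase, 1 and 12 for cholesterol synthesis, 14 and 5 for the glucocorticoid response, 2 and 24 for actin, 1 and 12 for caveolae and annexins, 2 and 19 for mitosis, and 2 and 14 for amino acid stress. Under quantile normalization the same lists had 11 and 0, 1 and 12, 15 and 4, 3 and 25, 1 and 11, 2 and 22, and 1 and 12.

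Whether an insert altered the hormone response was tested as a difference of responses, vector minus PPARg, over 4 arrays in each of the 4 groups. In session 1 the PPARg d2 arrays were processed on a later day than the vector d2 arrays and both d0 groups, so processing day and cell cannot be told apart there, while in session 2 the processing days of both cells matched at d2 and at d0. The difference passed for 81 of 7619 probe sets (1.06%), of which 59 were higher in vector cells and 22 lower (0.774% and 0.289%), and for 64 genes (1.11%), 45 higher and 19 lower (0.78% and 0.33%). The largest was Top2a, whose log2 fold was 2.83 in vector and 0.86 in PPARg cells. Its mean was 1256 at d2 and 179 at d0 in vector cells, against 569.6 and 309 in PPARg cells, and the difference was 1.97 ± 0.27 (limma, adjusted p = 1.03e-05). In Birc5, survivin, a protein of mitosis, the log2 fold was -0.75 in vector and -1.95 in PPARg cells, with means of 152 at d2 and 258 at d0 in vector cells, against 137 and 521 in PPARg cells. The d2 means were close to each other, and the d0 mean was higher in PPARg cells.

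Cell cycle genes were among those whose responses differed. In the mitosis list 10 of 43 had a higher response in vector cells and 0 a lower one, against 0.78% and 0.33% of all genes. In the S phase list the counts were 9 of 40 and 0. A higher response can be a smaller fall, as in Birc5, or a larger rise, as in Top2a. The median difference was 0.45 in both lists, against 0.01 over all genes. In vector cells 21 mitosis genes fell and in PPARg cells 32, where 12.8% and 16.4% of all genes fell. For S phase the counts were 5 in vector and 22 in PPARg cells. Of 15 acute phase genes 10 rose and 1 fell in PPARg cells, where 7.98% of all genes rose and 16.4% fell. In 3 of the 15 the response was higher in vector cells, among them Hp, at 2.83 in vector and 1.03 in PPARg cells, a difference of 1.80 ± 0.40. Angptl4 had 2.51 in vector and 1.19 in PPARg cells, with means of 1759 at d2 and 303 at d0 in vector cells, against 1692 and 742 in PPARg cells, so that its d0 level was the higher one with PPARg. Phlda1 had 1.27 in vector and -0.35 in PPARg cells, a difference of 1.62 ± 0.28.

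Responses that were lower in vector than in PPARg cells were led by Postn, periostin, a matrix protein of mesenchyme, at 0.01 in vector and 1.72 in PPARg cells. Its means were 976 at d2 and 984 at d0 in vector cells, against 1732 and 521 in PPARg cells, and the difference was -1.71 ± 0.24. Txnip, an inhibitor of thioredoxin, had 0.33 in vector and 1.60 in PPARg cells, Cxcl12 had 0.83 in vector and 2.08 in PPARg cells, and Cdo1, cysteine dioxygenase, had 1.13 in vector and 2.32 in PPARg cells. For Cxcl12 the d0 mean was 552 in vector and 144 in PPARg cells. Other tested probe sets of Cxcl12 had larger log2 folds in vector cells, 1.18 and 1.51, and their difference from PPARg is not given here. F3, tissue factor, had -0.49 in vector and 0.61 in PPARg cells, with an adjusted p of 0.0496 for the difference, which was lost without vector d2 replicate 1, 2 or 4 or vector d0 replicate 1, 2 or 3 or PPARg d2 replicate 1, 2, 3 or 4 or PPARg d0 replicate 1, 2 or 4 (limma, adjusted p up to 0.157). In cholesterol synthesis 12 of 14 genes fell in vector and 12 in PPARg cells, with median log2 folds of -1.88 in vector and -1.91 in PPARg cells. Of the 14 differences 0 passed.

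The vector response was set against that of EBF1 cells in the same way, using the same vector arrays. The EBF1 d2 arrays of both sessions and the EBF1 d0 arrays of session 2 were processed on later days than those of vector cells, so processing day and cell cannot be told apart. The difference passed for 39 probe sets (0.512%), 24 higher and 15 lower (0.315% and 0.197%), and for 28 genes (0.486%), 17 higher and 11 lower (0.295% and 0.191%). Sparcl1 led, with 2.30 in vector and 0.28 in EBF1 cells and means of 690.5 at d2 and 139.9 at d0 in vector cells, against 412 and 339 in EBF1 cells. The difference was 2.02 ± 0.29 (limma, adjusted p = 3.43e-05). Sat1, which starts polyamine breakdown, had 0.46 in vector and -0.88 in EBF1 cells, and Sesn1, a stress-induced sestrin, had 0.71 in vector and -0.32 in EBF1 cells. Cyp1b1 had 1.92 in vector and 0.83 in EBF1 cells, and Postn had 0.01 in vector and -1.03 in EBF1 cells. The call for Sesn1 was lost without vector d2 replicate 3 (limma, adjusted p up to 0.0574), that for Cyp1b1 without vector d2 replicate 3 or 4 or vector d0 replicate 3 or EBF1 d2 replicate 1 or 4 or EBF1 d0 replicate 1, 3 or 4 (limma, adjusted p up to 0.123), and that for Postn without vector d2 replicate 2 or 3 or vector d0 replicate 3 or 4 or EBF1 d2 replicate 3 or 4 or EBF1 d0 replicate 4 (limma, adjusted p up to 0.0797).

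Lower in vector than in EBF1 cells was the response of Lum, lumican, a small proteoglycan of collagen fibrils, at -0.08 in vector and 1.77 in EBF1 cells, with means of 500.2 at d2 and 512 at d0 in vector cells, against 1001 and 291 in EBF1 cells. The call for Lum was lost without vector d2 replicate 3 or 4 or vector d0 replicate 1 or 2 or EBF1 d2 replicate 2 or EBF1 d0 replicate 4 (limma, adjusted p up to 0.0713). Il6st, the shared receptor subunit of IL-6 and oncostatin M, had -0.27 in vector and 1.14 in EBF1 cells. Ccn2 had -2.68 in vector and -1.34 in EBF1 cells, and since it was under the floor at d2 in both cells, the difference of -1.34 ± 0.20 rests on the d0 levels of 359.8 in vector and 139 in EBF1 cells. Fmr1, the RNA-binding protein FMRP, had 0.56 in vector and 1.89 in EBF1 cells, and Psat1 had -2.0 in vector and -0.86 in EBF1 cells. Their calls were lost without vector d2 replicate 3 or 4 or vector d0 replicate 1 or 2 or EBF1 d0 replicate 4 (limma, adjusted p up to 0.0685) for Fmr1, and without vector d2 replicate 3 or 4 or vector d0 replicate 1 or 2 or EBF1 d2 replicate 3 or 4 or EBF1 d0 replicate 3 or 4 (limma, adjusted p up to 0.128) for Psat1. In the mitosis and S phase lists 0 differences from EBF1 passed, and medians were -0.09 and -0.10. Of the acute phase genes 10 rose in vector and 8 in EBF1 cells, where 9.43% and 10.3% of all genes rose, and 0 of 15 differences passed.

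**Figure D5:**
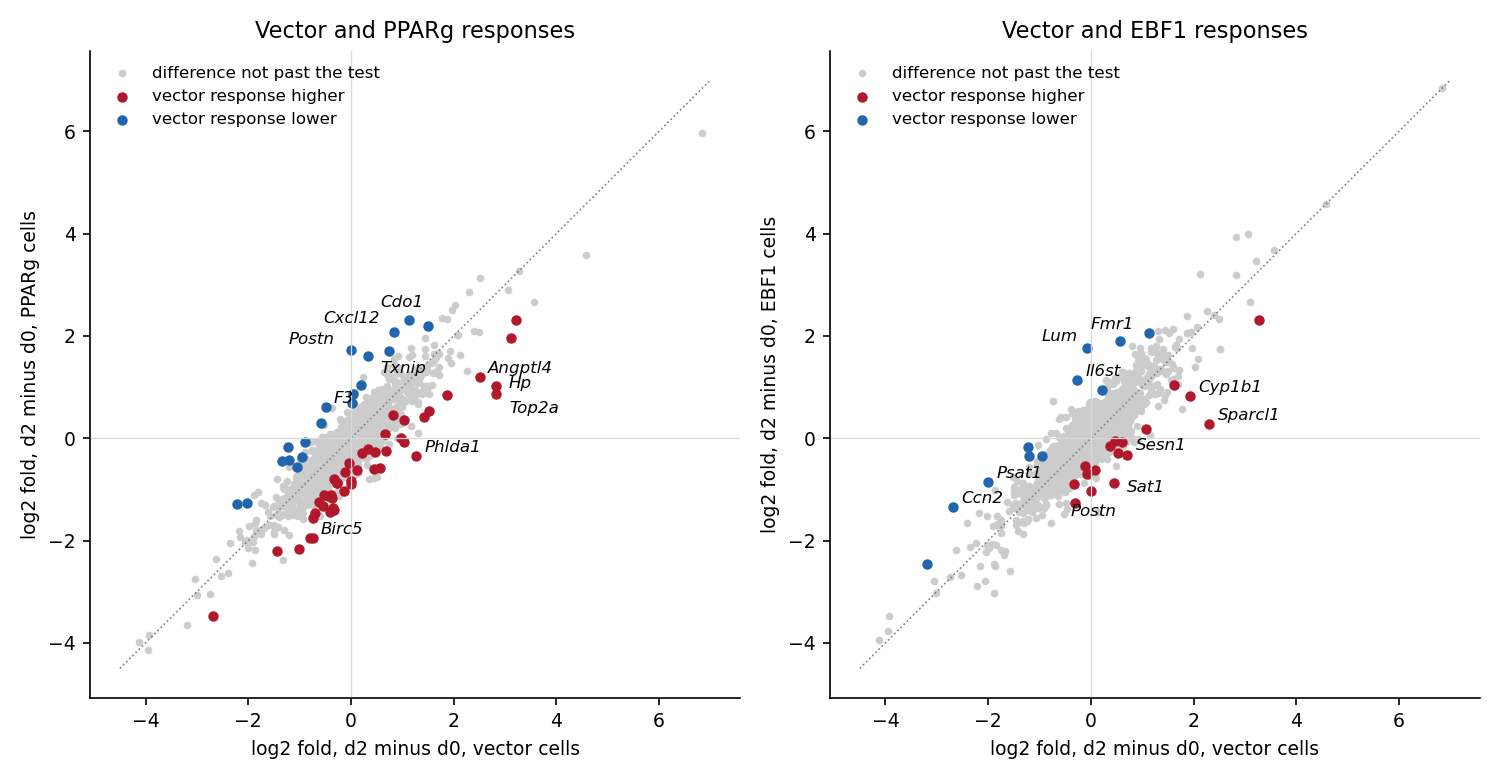
log2 fold, d2 minus d0, of each of the 5766 tested genes in vector cells (horizontal axis) against PPARg cells (left panel, vertical axis) and EBF1 cells (right panel, vertical axis), with 4 arrays per group. Genes whose difference of responses passed the test are red where the vector response was higher and blue where it was lower, the dotted line marks equal responses, and most genes, Saa3 at the upper right among them, lie along it.

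The vector arrays of later days, 7 at d4 and 3 at d10, place the d2 values in time (mean ± SD, with no test). All d10 arrays came from a further session, which held no d0 or d2 arrays. Between d10 and d0 or d2, day and session therefore cannot be told apart. Replicates 5, 6 and 7 of d4 came from that further session too, and the other d4 arrays from the sessions of d0 and d2. The d4 means and SDs therefore mix sessions. Saa3 averaged 75.4 ± 10.8 on d0, 8635 ± 640.1 on d2, 3473 ± 1124 on d4 and then 182 ± 10.3 on d10, and Lcn2 152 ± 32.6 on d0, 3657 ± 994 on d2, 1083 ± 850.1 on d4 and then 166 ± 28.1 on d10, and both means were highest at d2. Top2a averaged 179 ± 39.5 on d0, 1256 ± 177 on d2, 276 ± 82.5 on d4 and then 274 ± 46.5 on d10. Fkbp5 had its highest mean at d4, with 446 ± 18.9 on d0, 1869 ± 197 on d2, 2429 ± 262 on d4 and then 346 ± 34.2 on d10. The mean of Hmgcs1 stayed below its d0 level, with 1222 ± 166 on d0, 148 ± 19.8 on d2, 261 ± 43.2 on d4 and then 244 ± 57.3 on d10, while that of Acta2 was above its d0 level on d10, with 335 ± 135 on d0, 45 ± 6.76 on d2, 219.7 ± 136 on d4 and then 1229 ± 147 on d10. Lpl went on to 2705 ± 381 at d4 and 2235 ± 491 at d10. Crabp1 averaged 1153 ± 172 on d0, 66.2 ± 11.2 on d2, 97.7 ± 19.9 on d4 and then 744 ± 170.0 on d10. The step from d2 to d4 shares the d2 arrays with the step from d0 to d2, so no relation between the 2 is given.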

How the data were processed

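Total RNA, extracted with TRIzol per the labels, was hybridised to 53 Affymetrix MG_U74Av2 arrays. The authors deposited 1 intensity per probe set and array on a linear scale, while the sources used here do not name their summarisation or scaling. Sessions were taken from the processing days in the deposited experiment files. From the deposited intensities of 12488 probe sets, 66 control probe sets were left out, values were floored at the pooled 20th percentile (54.5) and the log2 was taken. The 7619 probe sets above the pooled median (158) on at least 2 of 53 arrays were tested in R 4.3.3 with limma 3.58.1, with a mean for each of 12 groups, contrasts, eBayes with an intensity trend, and Benjamini-Hochberg adjustment over all of them at 0.05. The platform annotation gave 10833 probe sets 1 gene symbol, 396 several and 1193 none. Of several probe sets of a gene, the one with the highest mean log2 intensity stood for it, which left 5766 genes, 923 of them with several tested probe sets.

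Members, the 40 gene lists, 8 marker lists and motifs were chosen with earlier results of these data known. Named genes are the 12 largest rises and 12 largest falls past the test without overlap between the groups, in each list up to 5 of the largest changes among genes that passed and those that passed against its majority, a panel of adipogenesis and proliferation genes, the 5 largest differences each way from each insert, members that did not pass where a list is given whole, and second probe sets that disagree. Promoters are those of RefSeq.

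On data simulated from these arrays, over 7619 probe sets, changes of 0.5, 1 and 2 on the log2 scale were found in 61.2%, 92.5% and 100% of cases for d2 against d0, in 31.3%, 76.1% and 97.0% for the difference from PPARg, and in 32.8%, 71.6% and 98.5% for that from EBF1. Changes were given to 67, 67 and 66 probe sets of these sizes. The noise was normal and independent between arrays, without sessions, a separate replicate 4 or a renewed floor. The rates may therefore differ on the real arrays. Figures were drawn in Python 3.11.15 with matplotlib 3.10.9.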

Additional observations from a re-analysis of the deposited data

Results flagged for a closer look

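Arrays set apart were sought in 102 groups of 4 arrays, from the vector groups of only some of the genes described. In 9 of the groups 1 array was set apart from the other 3 by Dixon's ratio of gap to range. Chance alone sets an array apart in about 1 in 20 groups. In 8 of the 9 it was replicate 4. Adipoq read 81.8 on d2 replicate 4, against 42.5 to 54.7 on the other d2 arrays (ratio 0.99), and 55.8 on d0 replicate 4, against 26.7 to 37.6 (ratio 1). These Adipoq ratios hold for floored values, while the intensities printed are unfloored. The other d0 arrays were all under the floor, and the other d2 arrays were under it or just above it. Flooring made them equal or nearly so, so both Adipoq cases, counted among the 9 and the 8, rest on the floor. In d2 replicate 4, Postn read 742 (others 1020.5 to 1073, ratio 0.863) and Top2a 993 (others 1329 to 1371, ratio 0.904). In d0 replicate 4, Crabp1 read 897 (others 1212 to 1260.1, ratio 0.884), Cxcl12 470.4 (others 567 to 586, ratio 0.847), Fdps 2288 (others 3315 to 3365, ratio 0.961) and Gas6 152 (others 169 to 172, ratio 0.869). Sesn1 read 594 on d2 replicate 3, against 327 to 342 on the other d2 arrays (ratio 0.925).

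Differences in response between cells passed the test of the difference itself for 10 named genes against PPARg. Vector minus PPARg was 1.97 for Top2a, 1.80 for Hp, 1.62 for Phlda1, 1.32 for Angptl4, 1.20 for Birc5, -1.71 for Postn, -1.27 for Txnip, -1.25 for Cxcl12, -1.19 for Cdo1 and -1.10 for F3 on the log2 scale. Against EBF1 they passed for 28 genes, of which 10 are named by the same rule. Postn is named in both sets, which share the vector arrays. Vector minus EBF1 was 2.02 for Sparcl1, 1.33 for Sat1, 1.10 for Cyp1b1, 1.04 for Postn, 1.03 for Sesn1, -1.85 for Lum, -1.41 for Il6st, -1.34 for Ccn2, -1.33 for Fmr1 and -1.14 for Psat1. Of these, Top2a, Cxcl12, Postn and Sesn1 also held an array set apart. Without replicate 4 of both vector groups, an alternative chosen after seeing the data, all 10 calls against PPARg and 8 of 10 against EBF1 held. With the arrays of a group and session averaged, 6 of 10 calls against PPARg and all 10 against EBF1 were lost, and in session 2 alone 6 of 10 and 3 of 10. Without vector d2 replicate 3, 6 of 10 calls against EBF1 were lost.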

How the results depend on the processing

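The 1635 probe sets past the test at d2 against d0 stayed within 1.5 times, and no named value reversed, under quantile normalization (1782), other floors (1581 and 1649), no filter (1737), a stricter filter (1484), no intensity trend (1640), session 1 alone (1866) and a session block (1290). With only the 2 groups compared in the fit there were 1049, in session 2 alone 722, and with the arrays of a group and session averaged 1054. Leaving out 1 array in turn gave 1344 (without d0 replicate 1) to 1925 (without d0 replicate 4). Of 240 named genes, 67 lost their call in session 2 alone, 54 with averaged arrays, 45 with only the groups compared, and 16 to 25 without 1 array. The 81 differences from PPARg became 123 with a session block, 25 in session 2 alone and 5 with averaged arrays, and 45 (without PPARg d2 replicate 3) to 118 (without vector d2 replicate 4) without 1 array. Without PPARg d2 replicate 4 there were 46, without vector d2 replicate 2 there were 52, and without vector d0 replicate 3 there were 50. The 39 differences from EBF1 became 66 under quantile normalization, 59 with a session block, 19 in session 2 alone and 2 with averaged arrays, and 18 (without vector d2 replicate 3) to 78 (without vector d0 replicate 4) without 1 array. There were 25 without vector d0 replicate 1, 22 without vector d0 replicate 2, 25 without EBF1 d0 replicate 3 and 21 without EBF1 d0 replicate 4. The cause was not tested.

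Same-numbered d2 and d0 arrays of vector cells deviated from their group means with correlations of -0.10, 0.53, 0.17 and 0.78, so the numbers were not taken to pair them, and not every array correlated best with its own number. With a replicate block the counts were 2026, 110 and 63.

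Signals near the floor have no measured fold, and differences between cells of 0.5 on the log2 scale were mostly missed in the simulation with 4 arrays per group.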

Other observations

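Some of the larger changes at d2 lay in genes of no list, chosen after their values were seen. Has2, a hyaluronan synthase, averaged 404 ± 48.5 at d2 and 76.8 ± 8.32 at d0, a log2 fold of 2.39 ± 0.28. Nfia, a nuclear factor I protein, averaged 468 ± 67.4 at d2 and 119 ± 13.2 at d0 with 1.97 ± 0.14. Tnip1, an inhibitor of NF-kappa B signals, rose by 1.71 ± 0.15, and Abhd5, the co-activator of the lipase Pnpla2, by 1.59 ± 0.18. Among those that fell, Emp1, an epithelial membrane protein, averaged 688 ± 111 at d2 and 2866 ± 234 at d0 with a log2 fold of -2.07 ± 0.15, and Tubb2a, a beta-tubulin, fell by 1.85 ± 0.14. Pdpn, the membrane glycoprotein podoplanin, fell by 1.62 ± 0.14, and Pla2g4a, the phospholipase that frees arachidonic acid, by 1.48 ± 0.13.

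Some probe sets with no gene in the annotation used changed as strongly. Probe set 93497_at read 5189, 5797, 5768 and 5656 at d2, against 72.6, 79.1, 89.3 and 82.5 at d0, a log2 fold of 6.12 ± 0.15, with no overlap and little spread within the groups. Probe set 97519_at read 183, 182, 166 and 123 at d2, against 1805, 1818, 1710.4 and 1394 at d0, a log2 fold of -3.37 ± 0.27.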
